A study of Mus musculus with 16 samples.

Results

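Libraries labelled lower first molar from late in crown formation were compared with libraries of that label from earlier stages. By the labels, each came from a different embryo. A gene of the upper jaw went against the label in the even-numbered libraries, as described below. The comparison took 8 of the 16 libraries: the 4 labelled lower at embryonic days ED16.5, ED17.0, ED17.5 and ED18.0 (individuals 5 to 8, called late) against the 4 at ED14.5, ED15.0, ED15.5 and ED16.0 (individuals 1 to 4, called early). Poly(A) RNA was sequenced with paired-end reads of 100 bp. By the labels, the left and right germs of 1 male made up each library, the embryos were wild type and of the outbred CD1 stock, and no treatment is named. The other 8 libraries were labelled as the upper first molars of the same 8 embryos. The 4 early and 4 late libraries were run on the same flow cell, the early ones in lane 2 and the late ones in lane 3, so lane and step cannot be told apart. A term for the alternating group (individuals 1, 3, 5 and 7 against 2, 4, 6 and 8) was kept in the model. It was proposed with earlier results of these data known, and fewer genes passed the threshold without it, as given at the end. By the labels each stage is 1 embryo, so the spread within a group includes up to 1.5 days of development as well as any differences between embryos.

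A molar germ is an ingrowth of oral epithelium, the enamel organ, that folds around a condensed dental mesenchyme derived from neural crest. Enamel knots, small groups of non-dividing epithelial cells that secrete Shh, Fgf, Bmp and Wnt signals, mark where cusps will form, and the folding epithelium and mesenchyme then begin to differentiate into ameloblasts and odontoblasts, the makers of enamel and dentin. A dissected germ also carries dental follicle, vessels, macrophages, the bone that is remodelled around it and some of the oral epithelium above it, which stratifies and cornifies in the same days.

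In all 8 libraries the genes of sex went against the label male, and several libraries also went against the tooth label or stood apart. Pou3f3, a POU-domain gene active in the upper jaw arch, measured 4.85, 86.2, 5.11 and 70.0 CPM (counts scaled to library size) in individuals 1 to 4 and 5.42, 64.2, 4.52 and 60.3 CPM in individuals 5 to 8. It was low in every odd-numbered and high in every even-numbered library labelled lower. Nkx2-3, a homeobox gene, alternated the other way, with 31.3, 0.112, 31.1 and 0.0722 CPM in the early and 22.2, 0, 19.5 and 0 CPM in the late libraries. Early and late each hold 2 libraries of each kind. Dlx5, a homeobox gene of jaw identity, also alternated, though less strongly. Under both labels each odd-numbered library was higher than the even-numbered one that followed it. It measured 149 to 181 CPM in the odd-numbered and 102 to 165 CPM in the even-numbered labelled lower libraries. The labelled upper libraries had 54.5 to 115 CPM in the odd-numbered and 27.5 to 70.4 CPM in the even-numbered ones. In every individual Dlx5 was higher in the labelled lower library. The labels still overlapped, as labelled upper individual 7 (115 CPM) was above labelled lower individual 2 (102 CPM). The dental genes Sp6, of the epithelium (428 to 691 CPM in the early and 615 to 1066 CPM in the late libraries), and Barx1, of the molar mesenchyme (256 to 422 CPM in the early and 207 to 382 CPM in the late libraries), were present in all 8. Xist, the RNA of the inactive X chromosome, measured 429, 543, 1743 and 1910 CPM in early and 1820, 1912, 1636 and 1641 CPM in late libraries, although all embryos were labelled male, and was lowest in individuals 1 and 2. Ddx3y had 2 counts over the 8 libraries and the Y-linked Eif2s3y, Kdm5d and Uty had 0, which allows at most 3 counts each, or 0.00953 CPM. Libraries of neighbouring stages also resembled each other: for Cwc22, a splicing factor gene, they measured 249, 249, 678 and 684 CPM early and 53.3, 54.5, 48.1 and 46.7 CPM late. Deviations from the fitted values correlated at 0.35 to 0.54 over 13693 genes within the neighbours 1 and 2, 3 and 4, 5 and 6, and 7 and 8, against -0.84 to -0.57 for other pairs within early or late and -0.31 to 0.33 between early and late. These correlations are a description across genes, partly fixed by the fit. What the neighbours share beyond a close stage was not tested, and the counts of genes that rose or fell are therefore also given with each neighbouring pair summed to 1 sample (2 against 2) and without individuals 1 and 2. Without individuals 1 and 2, the early group is only the neighbours 3 and 4, so calls in that setting count 2 similar libraries as separate samples. Gene counts ran from 35918529 to 44565205 per labelled lower library.

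**Figure D1:**
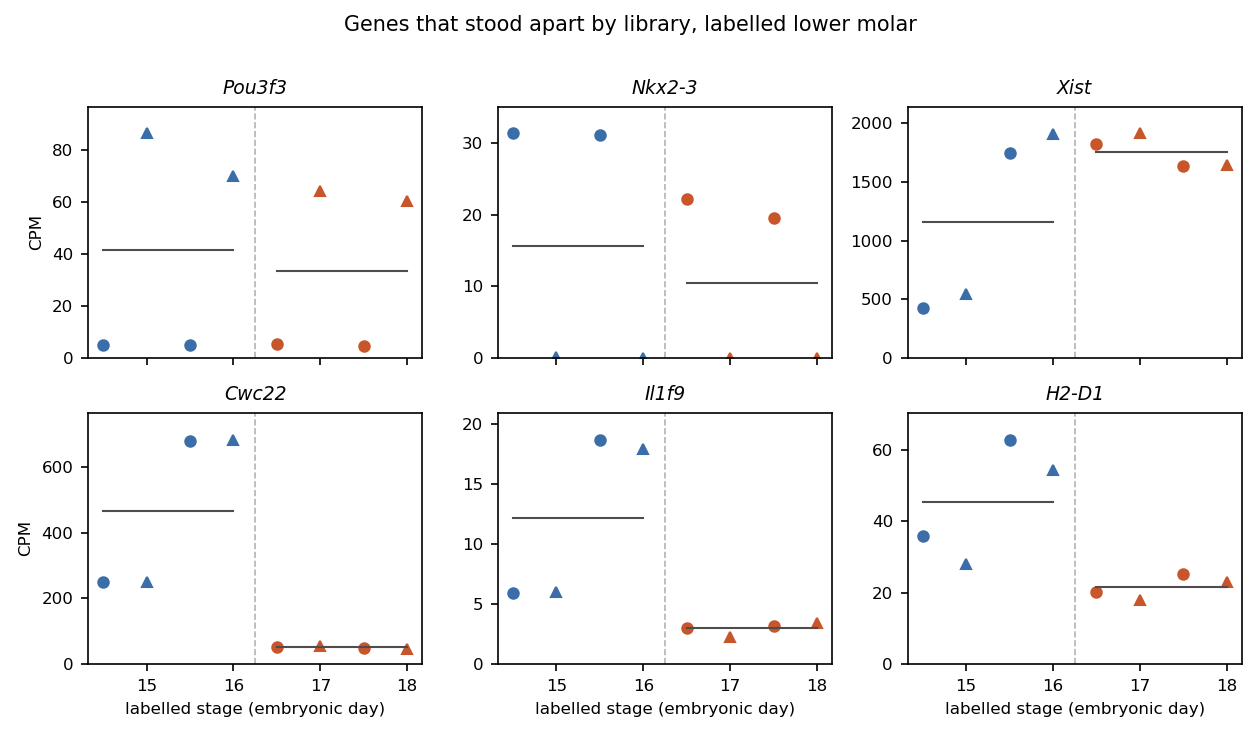
CPM of 6 genes (y axes, linear from 0) in the 8 labelled lower libraries by labelled embryonic day (x axes); blue is early, orange late, circles are odd-numbered and triangles even-numbered individuals, horizontal lines are group means and the dashed line separates the groups. Pou3f3 and Nkx2-3 alternate from stage to stage, Xist is lowest in individuals 1 and 2, and Cwc22, Il1f9 and H2-D1 take similar values in neighbouring stages.

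Of 16054 genes tested, 653 rose from early to late (4.07%) and 371 fell (2.31%) at an adjusted p under 0.05. The test was the quasi-likelihood F test of edgeR, adjusted by Benjamini-Hochberg. Over 2-fold, 136 rose and 27 fell. The early and late ranges did not overlap for 486 of the genes that rose and 295 of those that fell. Over all genes tested, called or not, they did not overlap for 1076 with the late libraries higher (6.70%) and 1007 with the late libraries lower (6.27%). Over the 500 genes of highest variance, principal component 1 (42.6% of the variance) ran from -20.3 to -9.69 in the early libraries and from 3.51 to 23.9 in the late ones. With neighbours summed, 17 genes rose and 1 fell, and 1985 had an unadjusted p under 0.05. Excluding individuals 1 and 2, 55 rose and 39 fell. Calls held with any single library left out for 161 genes. The counts fell to 151 higher and 57 lower without individual 8, and to 159 and 86 without individual 1. Without individuals 2, 3, 4, 6 and 7 in turn, 185, 390, 240, 412 and 255 genes rose and 84, 156, 94, 174 and 106 fell.

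Genes of the cornified envelope, the cross-linked protein shell of terminally differentiated surface epithelium, were among those that rose by the widest margin. Among named genes with a mean count of at least 50 and no overlap between the groups, the 12 largest increases were those of Hrnr, Crct1, Rptn, Slpi, Best1, Csta, Alox12b, Klk14, Cdsn, Sprr1a, Arg1 and Krt78, with log2 differences of 3.28 to 5.99. Hrnr and Crct1 passed the filter on low counts only through the late libraries, so their calls and lack of overlap are not independent of that filter. Hrnr, Crct1, Rptn and Sprr1a, all on chromosome 3, lie in the gene cluster of envelope proteins. Cdsn encodes corneodesmosin of the cornified cell junctions, Klk14 a protease of shedding epithelium and Alox12b a lipoxygenase of the skin barrier. Slpi and Csta encode protease inhibitors and Krt78 a keratin. Reads of near-identical keratin, cystatin and small proline-rich copies may be shared or lost between copies, so these values are uncertain. Of 15 measured genes on the list of oral cornifying epithelium, 7 rose, none fell and 8 were not called. The other 5 of 20 listed genes present were too low to test, and Crct1 passed the filter on low counts only through the late libraries, so no median is given for the list. The summed level of the 20 listed genes present in the tables was 285 to 626 CPM early and 569 to 1931 CPM late. In a whole germ, more surface epithelium in a dissection and more of these transcripts per cell cannot be told apart, and which of them applies was not tested.

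Upstream sequence is shown for Sprr1a and Lor because, of 12 of these genes with a promoter entry, they were the ones that hold the AP-1 motif TGAGTCA, in capitals below. The windows are the 250 bases before the annotated start, 5′ to 3′ on the gene's strand, from RefSeq build GRCm38.p6, chr3:92485882-92486131 (minus strand) for Sprr1a and chr3:92083143-92083392 (minus strand) for Lor.
Sprr1a: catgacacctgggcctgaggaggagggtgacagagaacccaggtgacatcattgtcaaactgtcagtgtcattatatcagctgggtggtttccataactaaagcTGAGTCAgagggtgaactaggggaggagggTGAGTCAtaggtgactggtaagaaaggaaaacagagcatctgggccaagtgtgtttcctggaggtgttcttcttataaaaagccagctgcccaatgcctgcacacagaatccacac
Lor: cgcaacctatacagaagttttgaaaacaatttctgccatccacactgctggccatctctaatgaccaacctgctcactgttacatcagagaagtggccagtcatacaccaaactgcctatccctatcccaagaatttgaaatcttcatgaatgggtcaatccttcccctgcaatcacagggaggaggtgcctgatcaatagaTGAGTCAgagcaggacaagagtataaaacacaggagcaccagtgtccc
The Sprr1a window holds 2 copies, which begin 146 and 116 bases before the start, and the Lor window holds 1, at 48 bases. Either strand of 4.46% of the 32851 annotated windows of this length holds TGAGTCA or its reverse complement TGACTCA. The motif TATAAA, searched the same way on both strands, was in 5 of the 12 genes (Hrnr, Lor, Rptn, Sprr1a and Sprr3) and in 12.4% of all windows. Such matches are a description of the letters only.

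Sprr3, a small proline-rich envelope precursor (chr3:92456502-92458720, GRCm38.p6), measured 4.27, 7.09, 4.46 and 5.54 CPM in early individuals 1 to 4 and 96.5, 26.1, 23.6 and 60.6 CPM in late individuals 5 to 8. Every late library was above every early one, with individuals 5 and 8 highest (log2 difference 3.25 ± 0.48, adjusted p = 0.0125). Sprr1a (chr3:92483954-92485881), of the same family, measured 1.31, 2.94, 1.33 and 2.43 CPM early and 30.0, 12.3, 8.91 and 29.1 CPM late (log2 difference 3.36 ± 0.45, adjusted p = 0.00938). Crct1 (chr3:93014205-93015686) had only 20 early counts in all and measured 0.0800, 0.112, 0.100 and 0.193 CPM, against 10.3, 1.97, 2.29 and 6.50 CPM late (log2 difference 5.36 ± 0.70, adjusted p = 0.00864). The 4 late libraries of both genes lay above all early ones, and again individuals 5 and 8 were the high ones. Rptn, which encodes repetin, measured 0.0267, 0.0449, 1.60 and 0.530 CPM early and 27.0, 3.83, 16.3 and 28.1 CPM late (log2 difference 5.14 ± 0.86, adjusted p = 0.0162). Rptn lost its call when individual 2 was left out (adjusted p = 0.0501). Hrnr rested on 7 early and 428 late counts, with 6.03, 0.336, 2.16 and 2.97 CPM late (log2 difference 5.99 ± 0.91, adjusted p = 0.0128). Individual 6 was the lowest late library for Crct1, Hrnr, Rptn and Cdsn.

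Loricrin (Lor), the main envelope protein of the epidermis, measured 2.59, 2.58, 5.09 and 4.12 CPM early and 38.2, 6.90, 14.7 and 33.6 CPM late (log2 difference 2.69 ± 0.51, adjusted p = 0.0246). Krt4, a keratin of the internal stratified epithelia of the mouth, measured 23.8, 51.1, 26.1 and 28.0 CPM early and 362, 95.5, 98.2 and 168 CPM late (log2 difference 2.46 ± 0.47, adjusted p = 0.0255). The groups did not overlap for either gene, and individual 5 was the highest library. Krt13, the partner keratin of Krt4, was 729.7 CPM in individual 5 and 179 to 262 CPM in the other late libraries, against 75.1 to 195 CPM early, and was not called (adjusted p = 0.130). The epidermal keratins Krt1 (log2 difference 0.47 ± 0.53, adjusted p = 0.634) and Krt10 (0.28 ± 0.27, adjusted p = 0.569) were not called, and their early and late libraries overlapped.

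With neighbours summed, the calls of Crct1, Hrnr, Krt78, Klk14, Slpi, Sprr1a, Sprr3, Cdsn, Csta, Lor and Krt6b held, with adjusted p from 0.00609 for Sprr1a to 0.0478 for Cdsn, Csta and Lor. Cnfn (adjusted p = 0.0504), Krt4 (0.0669), Alox12b (0.0801), Arg1 (0.0637) and Rptn (0.153) were not called there. Excluding individuals 1 and 2, none of the 7 listed cornifying genes was called. The log2 difference there was 3.42 (adjusted p = 0.0793) for Sprr1a and 5.09 (adjusted p = 0.0861) for Crct1. Slpi lost its call when individual 1 or 8 was left out (adjusted p up to 0.0566). Cnfn, Lor, Krt4, Krt6b and Alox12b each lost the call when any of 4 to 7 libraries was left out, between them individuals 1, 2, 3, 4, 5, 7 and 8 (highest adjusted p 0.0659 to 0.147). The calls of Hrnr, Crct1, Sprr1a, Sprr3, Cdsn, Klk14, Csta, Krt78 and Arg1 held with any library left out.

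**Figure D2:**
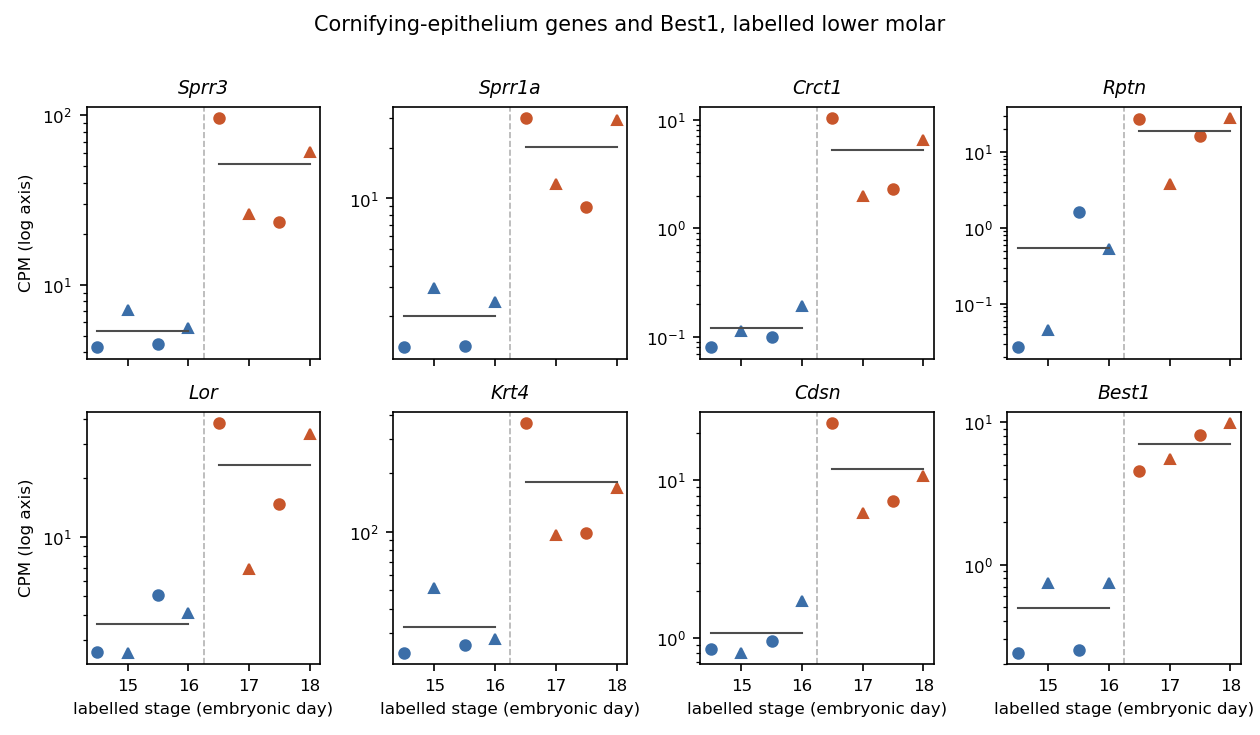
CPM on log axes (y) of 7 cornifying-epithelium genes and Best1 in the 8 labelled lower libraries by labelled embryonic day (x); blue is early, orange late, circles odd-numbered and triangles even-numbered individuals, and lines are group means. Every late library lies above every early one in each panel, and individual 5, the first late library, is the highest for Sprr3, Sprr1a, Crct1, Lor, Krt4 and Cdsn.

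Calls also held for genes outside the envelope. Best1, a chloride channel gene, measured 0.240, 0.741, 0.251 and 0.746 CPM early and 4.56, 5.48, 8.15 and 9.87 CPM late (log2 difference 3.88 ± 0.35, adjusted p = 0.00252). Its late libraries were in a narrower range than those of the envelope genes, and individual 5 was the lowest of them. C4b, complement component 4B, measured 2.45, 6.24, 2.83 and 6.60 CPM early and 12.03, 15.3, 12.04 and 26.1 CPM late (log2 difference 1.91 ± 0.18, adjusted p = 0.00308). Ndufa4l2, a mitochondrial subunit gene induced by hypoxia, measured 46.1, 35.3, 40.2 and 36.7 CPM early and 74.4, 54.8, 75.1 and 57.5 CPM late (log2 difference 0.71 ± 0.06, adjusted p = 0.00214). Nup210, a nuclear pore protein gene, was the single gene that fell with neighbours summed. It measured 55.7, 53.9, 53.5 and 53.6 CPM early and 33.9, 34.9, 32.9 and 31.2 CPM late (log2 difference -0.71 ± 0.05, adjusted p = 0.00191). The groups did not overlap for any of these. All 4 were called with any library left out, with neighbours summed and excluding individuals 1 and 2 (adjusted p = 0.0329, 0.0392, 0.0233 and 0.0147 in that last setting). The next gene, Arg1 (arginase 1), measured 0.427, 0.786, 1.13 and 1.47 CPM early and 14.55, 8.33, 4.82 and 11.4 CPM late (log2 difference 3.36 ± 0.42, adjusted p = 0.00758), but was not called excluding individuals 1 and 2 (adjusted p = 0.0599).

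Outside the cornifying list, no list had a member called with neighbours summed, so each call in the paragraphs that follow counts the 8 libraries as separate samples. The list counts that follow stand beside 4.07% of all genes tested that rose and 2.31% that fell, and many of them are 1 or 2 genes. Their lowest adjusted p with neighbours summed was 0.0742 (Mrc1 and Itgb3). Excluding individuals 1 and 2, the calls of 5 list members held: Mrc1, Adamts5, Spp1 and Tbx22, which rose, and Lgr4, which fell. That setting has only the neighbours 3 and 4 as its early group. Spp1 and Tbx22 each kept the call in only 2 of the 8 fits with a single library left out. Hsph1, a heat shock gene, was called excluding individuals 1 and 2 (adjusted p = 0.0244) but not over the 8 libraries.

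Some genes on the enamel knot list rose. Of 18 measured knot genes, 5 rose, 2 fell and 11 were not called, with a median log2 difference of 0.17. Their differences ran from -0.52 to 0.98, with 11 positive and 7 negative. The ligand genes Fgf4, Fgf9, Fgf15, Fgf20, Wnt10a and Wnt10b were among those not called, and several of the genes that rose are also active outside the knots. Bmp2, a bone morphogenetic protein secreted by the knots and later by odontoblasts (chr2:133552159-133562896), measured 13.5, 12.3, 14.2 and 13.4 CPM early and 23.01, 22.5, 29.9 and 30.0 CPM late (log2 difference 0.98 ± 0.11, adjusted p = 0.00653). All late libraries were above all early ones, the highest being individuals 7 and 8. Shh, the hedgehog ligand of the dental epithelium, measured 285, 181, 396 and 242 CPM early and 485, 341, 612 and 456 CPM late (log2 difference 0.80 ± 0.15, adjusted p = 0.0231). Early individual 3 was above late individual 6 for Shh, and within both groups the odd-numbered libraries were higher than the even-numbered ones. Fgf3, a knot and mesenchyme ligand, measured 20.1, 25.2, 32.9 and 28.0 CPM early and 42.8, 38.1, 48.3 and 51.7 CPM late (log2 difference 0.77 ± 0.15, adjusted p = 0.0256). Msx2, a homeobox gene of knot and mesenchyme (log2 difference 0.64 ± 0.13, adjusted p = 0.0334), and the guidance ligand gene Slit1 (0.56 ± 0.14, adjusted p = 0.0468) also rose. Sostdc1, an inhibitor of Bmp and Wnt signals around the knots (log2 difference -0.17 ± 0.08), and Bmp7 (0.28 ± 0.09) were not called.

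Lef1, the transcription factor that carries Wnt signals in bud and cap epithelium and mesenchyme, measured 116, 120.2, 98.5 and 121 CPM early and 78.5, 99.9, 69.2 and 89.6 CPM late (log2 difference -0.45 ± 0.07, adjusted p = 0.0149). Every late library but individual 6 was below all early ones. Bmp4, the mesenchymal Bmp ligand of the early germ, fell from 86.2 ± 6.06 to 70.9 ± 6.51 CPM (mean ± SD, n = 4 in each group; log2 difference -0.29 ± 0.07, adjusted p = 0.0418). The Bmp2 call held with any library left out. Lef1 lost its call when individual 8 was left out (adjusted p = 0.0552). Fgf3, Shh, Msx2, Bmp4 and Slit1 each lost the call when any of 4 to 8 libraries was left out, between them all 8 individuals (highest adjusted p 0.0675 to 0.122).

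**Figure D3:**
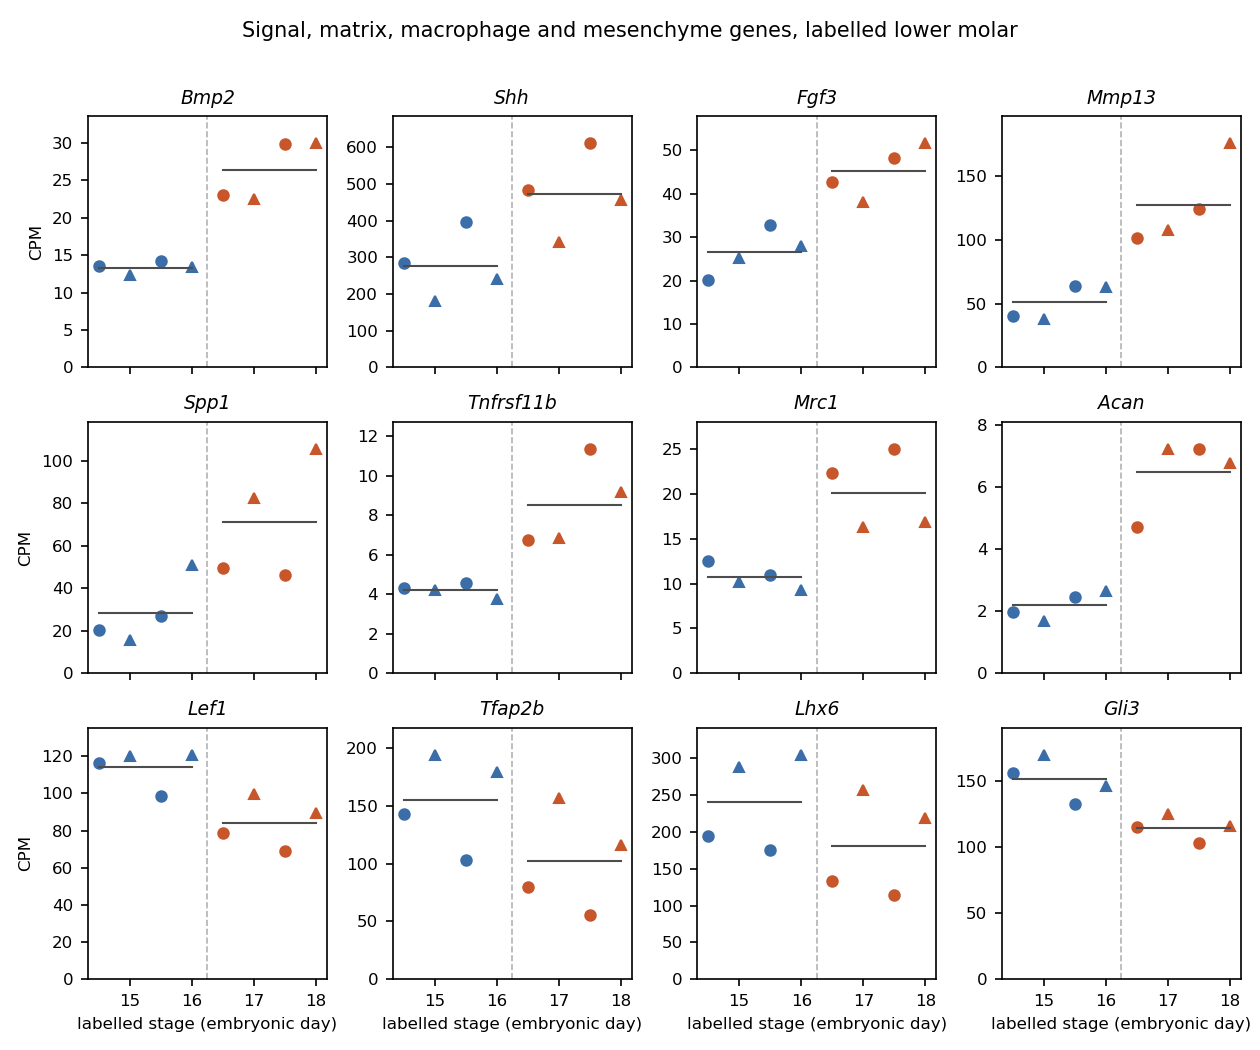
CPM (y, linear from 0) of 12 genes in the 8 labelled lower libraries by labelled embryonic day (x); blue is early, orange late, circles odd-numbered and triangles even-numbered individuals, and lines are group means. Bmp2, Fgf3, Mmp13, Tnfrsf11b, Mrc1 and Acan are higher in every late library than in any early one, Shh and Spp1 overlap, and Lef1, Tfap2b, Lhx6 and Gli3 are lower on average late.

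The Bmp pathway had the most called members of the signalling lists. Of 28 measured genes, 10 rose, 2 fell and 16 were not called, with a median log2 difference of 0.20. The summed level of the list was 1820 to 1857 CPM early and 1941 to 2181 CPM late. Among ligands, Bmp2 and Bmp3 (log2 difference 0.31 ± 0.06) rose and Bmp4 fell. Bmp8a, at 0.988 to 3.61 CPM in the early and 2.82 to 12.4 CPM in the late libraries, rose by 1.74 ± 0.37 with overlapping groups. Among inhibitors, Smad6, which blocks the pathway inside the cell and is itself induced by it, measured 36.8, 35.0, 33.2 and 35.2 CPM early and 47.9, 46.4, 62.0 and 52.2 CPM late (log2 difference 0.57 ± 0.09, adjusted p = 0.0128). Its 4 early libraries lay within a narrow range below all late ones. The pseudoreceptor gene Bambi (0.52 ± 0.11) and the secreted antagonist gene Nog (0.44 ± 0.09) rose. Of the target genes, Msx2, Id1 (0.21 ± 0.04), Id3 (0.21 ± 0.05) and Id4 (0.42 ± 0.07) rose. Id2 was at 92.9 to 103 CPM in the early and 93.2 to 114 CPM in the late libraries and was not called. The receptor gene Bmpr1a, at 198 to 211 CPM in the early and 197 to 214 CPM in the late libraries, was not called. Smad6 kept its call with any library left out. Bmp3, Id4, Id1, Nog, Id3, Bambi and Bmp8a each lost the call when any of 4 to 7 libraries was left out, between them individuals 1, 2, 3, 4, 6, 7 and 8 (highest adjusted p 0.0675 to 0.104).

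Of 40 measured Wnt pathway genes, 7 rose, 2 fell and 31 were not called (median log2 difference 0.09). Among the ligands, Wnt3a measured 31.2, 22.1, 32.7 and 26.8 CPM early and 43.2, 33.8, 58.9 and 41.7 CPM late (log2 difference 0.65 ± 0.11, adjusted p = 0.0175), with late individual 6 only just above the highest early library. Wnt11 (0.41 ± 0.08), Wnt2b (0.50 ± 0.12) and Wnt5a (0.16 ± 0.04) also rose, as did Sfrp4 (0.38 ± 0.09) and Nkd2 (0.36 ± 0.08), which encode inhibitors of the pathway. The secreted Wnt enhancer gene Rspo4 measured 23.1, 19.9, 38.8 and 31.8 CPM early and 44.5, 55.4, 141 and 119 CPM late (log2 difference 1.66 ± 0.38, adjusted p = 0.0396). Every late library was above every early one, and individuals 7 and 8 were the highest. Lgr4, a receptor for R-spondins, measured 142, 158, 126 and 153 CPM early and 102, 118, 102 and 126 CPM late (log2 difference -0.37 ± 0.05, adjusted p = 0.00798). Late individual 8 reached the level of the lowest early library. Lgr4 kept its call with any library left out. Wnt3a, Wnt11, Wnt2b, Rspo4, Sfrp4, Nkd2 and Wnt5a each lost the call when any of 3 to 8 libraries was left out, between them all 8 individuals (highest adjusted p 0.0629 to 0.125).

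In the Hedgehog pathway, 2 of 13 measured genes rose, 2 fell and 9 were not called, where 4.07% of all genes tested rose and 2.31% fell. Beside Shh, its decoy receptor gene Hhip rose from 87.5 ± 23.5 to 148 ± 20.6 CPM (mean ± SD, n = 4 in each group; log2 difference 0.75 ± 0.17, adjusted p = 0.0362). Gli2, a transcription factor of the pathway, measured 91.0, 97.4, 80.1 and 97.5 CPM early and 65.3, 80.3, 69.6 and 74.7 CPM late (log2 difference -0.34 ± 0.05, adjusted p = 0.0125). Gli3, which acts largely as its repressor, measured 156, 169.8, 133 and 146 CPM early and 115, 125, 103 and 116 CPM late (log2 difference -0.40 ± 0.07, adjusted p = 0.0185). The groups did not overlap for Gli3, and for Gli2 late individual 6 lay just above the lowest early library. The targets Ptch1 (log2 difference 0.04 ± 0.09) and Gli1 (-0.16 ± 0.05) were not called. Gli2 was called with any library left out. Gli3 and Hhip each lost the call when any of 3 to 6 libraries was left out, between them individuals 1, 2, 4, 6, 7 and 8 (highest adjusted p 0.0668 to 0.106).

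In the remaining signalling lists, single genes were called, 1 or 2 a list, where 4.07% of all genes tested rose and 2.31% fell. In the Fgf pathway, 1 of 21 genes rose (Fgf3) and 1 fell, the feedback phosphatase gene Dusp6 (-0.41 ± 0.10). The receptor genes Fgfr1 (0.12 ± 0.06) and Fgfr2 (-0.09 ± 0.04) were not called. In the Eda pathway, 1 of 10 rose, the adaptor gene Edaradd (0.44 ± 0.10). In the Notch pathway, 2 of 18 rose. Notch4, a receptor of vessel walls, measured 28.3, 28.5, 31.1 and 29.9 CPM early and 40.7, 40.7, 49.4 and 44.7 CPM late (log2 difference 0.57 ± 0.07, adjusted p = 0.00758), without overlap and with a call that held with any library left out. Jag2, a Notch ligand gene, rose by 0.26 ± 0.06. In the activin and Tgfb list, 2 of 16 rose, the ligand gene Tgfb1 (0.26 ± 0.05) and the matrix gene Tgfbi (0.55 ± 0.13). Dusp6, Edaradd, Jag2, Tgfb1 and Tgfbi each lost the call when any of 5 to 7 libraries was left out, between them all 8 individuals (highest adjusted p 0.0865 to 0.138).

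**Figure D4:**
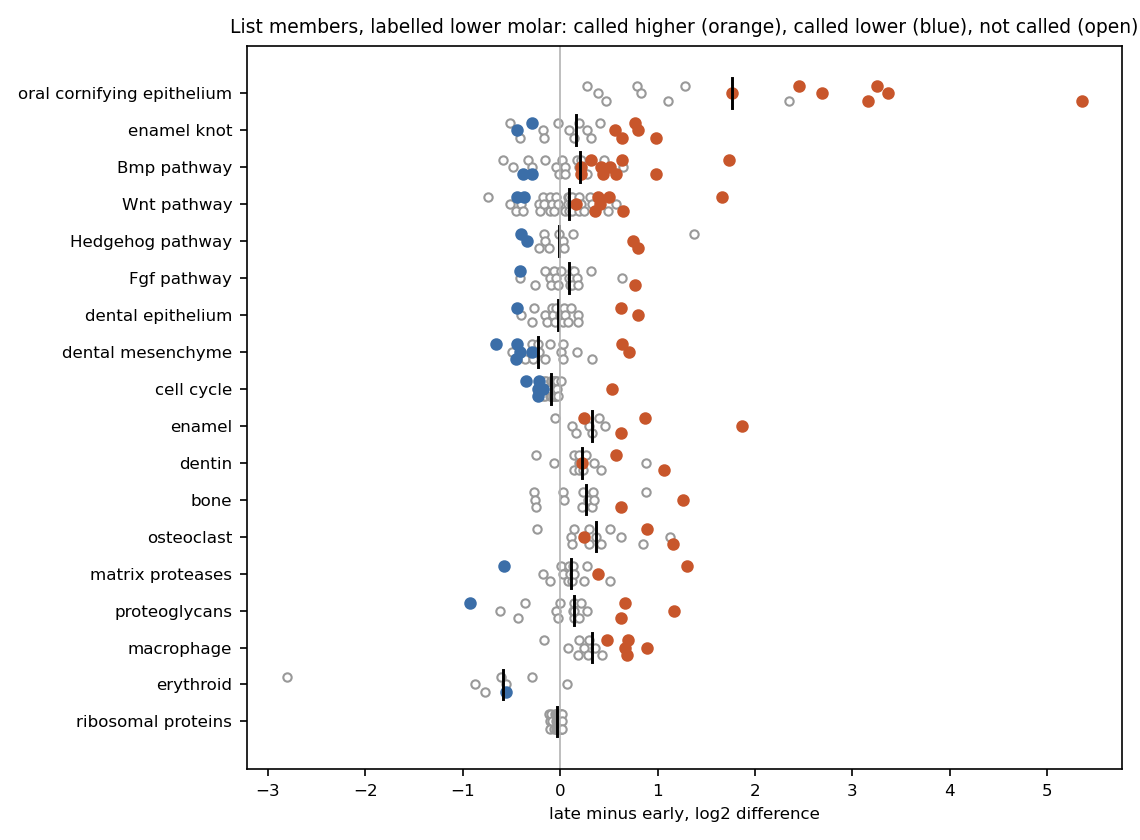
Late minus early log2 difference (x axis) of every measured member of 18 gene lists (rows); each point is a gene, filled orange where it rose, filled blue where it fell and open where it was not called, and the black bar is the list's median. The cornifying list lies farthest right, and its bar counts Crct1, which passed the filter only through late libraries. The dental mesenchyme and cell cycle lists hold 5 genes each that fell, and the ribosomal protein genes lie near 0.

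Several transcription factor genes of the dental mesenchyme fell. Of 20 measured genes, 5 fell, 2 rose and 13 were not called, with a median log2 difference of -0.22. The summed level was 3139 to 4175 CPM early and 3210 to 3899 CPM late. Lhx6, a LIM homeobox gene of the first arch mesenchyme, measured 194, 289, 175 and 305 CPM early and 133, 258, 114 and 218 CPM late (log2 difference -0.45 ± 0.08, adjusted p = 0.0210). Even-numbered libraries were higher than odd-numbered ones in both groups, and within either set the late libraries were the lower. Pax9, needed for tooth development beyond the bud, measured 115, 139, 90.1 and 131 CPM early and 80.8, 109, 67.0 and 105 CPM late (log2 difference -0.41 ± 0.08, adjusted p = 0.0315), with the same alternation. Osr2, which limits teeth to a single row in mice, measured 124, 115, 90.0 and 116 CPM early and 78.7, 89.1, 74.1 and 87.0 CPM late without overlap (log2 difference -0.44 ± 0.09, adjusted p = 0.0256). Tfap2b, a neural crest factor, measured 143, 195, 103 and 179.7 CPM early and 80.2, 157, 56.0 and 116 CPM late (log2 difference -0.65 ± 0.16, adjusted p = 0.0453). Barx1, Msx1 and Dlx1, molar mesenchyme factors, had differences of -0.22, -0.29 and -0.22 and were not called, nor was Dlx2 (0.03). Tnc, a matrix glycoprotein of condensing mesenchyme, rose from 176 ± 44.0 to 284 ± 59.3 CPM (log2 difference 0.70 ± 0.11, adjusted p = 0.0126) and kept its call with any library left out. The remaining called members were Bmp4, which fell, and Msx2, which rose (values above). Lhx6, Pax9, Osr2 and Tfap2b each lost the call when any of 3 to 7 libraries was left out, between them all 8 individuals (highest adjusted p 0.0722 to 0.125).

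Of 20 genes of dental epithelium, 2 rose (Sp6 and Shh), 1 fell (Lef1) and 17 were not called (over all genes tested, 6.38% were called in either direction). Their summed level was 5877 to 7418 CPM early and 5961 to 7896 CPM late. Krt5 and Krt14, basal keratins, differed by 0.11 ± 0.05 and -0.16 ± 0.09 on the log2 scale, neither of them called. Among 7 genes of the stellate reticulum, the inner enamel organ, 3 rose and none fell. They were the gap junction gene Gja1, with 1048, 866, 1137 and 992 CPM early and 1271, 1086, 1507 and 1182 CPM late (log2 difference 0.31 ± 0.07), the microfibril gene Fbn2 (0.85 ± 0.20) and Jag2. Gja1 and Fbn2 each lost the call when any of 5 to 6 libraries was left out, between them individuals 1, 2, 3, 4, 7 and 8 (highest adjusted p 0.104 to 0.131). In the dental follicle list 2 of 12 rose. Lumican (Lum), a collagen-binding proteoglycan, measured 306, 269, 295 and 249 CPM early and 441, 375, 579 and 394 CPM late (log2 difference 0.67 ± 0.08, adjusted p = 0.00765), without overlap and with a call that held with any library left out. Col12a1, a fibril-associated collagen, rose by 0.47 ± 0.11. Col12a1 lost its call when any of individuals 1, 2, 3, 4, 7 and 8 was left out (adjusted p up to 0.130).

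Genes of mineralized tissue rose in small numbers, where 4.07% of all genes tested rose. For enamel, 4 of 11 measured genes rose and none fell. Sp6, the epiprofin transcription factor of the enamel organ, measured 479.9, 428, 691 and 484 CPM early and 856, 615, 1066 and 716 CPM late (log2 difference 0.63 ± 0.12, adjusted p = 0.0255), with early individual 3 above late individual 6. Itgb6, the integrin subunit of secretory ameloblasts, rose by 0.87 ± 0.21, and Lamb3, a laminin chain of the basement membrane that is mutated in enamel defects, by 0.25 ± 0.04. Enam, the enamelin gene, measured 0.293, 0.382, 0.226 and 0.530 CPM early and 1.05, 1.01, 1.73 and 1.41 CPM late (log2 difference 1.86 ± 0.31, adjusted p = 0.0164), on 59 early counts. Ambn, ameloblastin, stood at 19.5, 18.5, 14.53 and 16.1 CPM early and 17.3, 14.2, 21.9 and 13.9 CPM late and was not called (adjusted p = 0.868). Sp6, Enam, Lamb3 and Itgb6 each lost the call when any of 3 to 7 libraries was left out, between them individuals 1, 2, 3, 4, 5, 7 and 8 (highest adjusted p 0.0596 to 0.125).

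For dentin, 3 of 15 rose and none fell, where 4.07% of all genes tested rose. Klf4, a transcription factor gene, measured 31.1, 33.2, 34.3 and 32.3 CPM early and 51.1, 39.0, 59.5 and 47.4 CPM late without overlap (log2 difference 0.58 ± 0.10, adjusted p = 0.0164). Fam20a, which encodes the partner of the kinase that phosphorylates enamel and dentin proteins, rose by 1.06 ± 0.21, and the collagen chaperone gene Serpinh1 by 0.22 ± 0.04. Klf4 lost its call when individual 8 was left out (adjusted p = 0.0616). Serpinh1 lost its call when individual 1 or 2 was left out (adjusted p up to 0.0510). Fam20a lost its call when any of individuals 1, 3, 4, 7 and 8 was left out (adjusted p up to 0.0752). Collagen type I, the bulk of dentin and bone matrix, was not called: Col1a1 was at 1907 to 3260 CPM in the early and 2388 to 3476 CPM in the late libraries.

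For bone, 2 of 14 rose, where 4.07% of all genes tested rose. Spp1, osteopontin, measured 20.5, 15.6, 26.7 and 51.2 CPM early and 49.7, 82.8, 46.3 and 106 CPM late (log2 difference 1.26 ± 0.31, adjusted p = 0.0458). Early individual 4 was above late individuals 5 and 7. It was called excluding individuals 1 and 2 (adjusted p = 0.0325). Spp1 lost its call when any of individuals 1, 3, 5, 6, 7 and 8 was left out (adjusted p up to 0.125). Omd, osteomodulin, rose from 53.3 ± 4.48 to 82.6 ± 11.4 CPM (log2 difference 0.63 ± 0.10, adjusted p = 0.0150), without overlap. Omd lost its call when individual 8 was left out (adjusted p = 0.0567). Runx2, the master regulator of osteoblasts, had a difference of -0.26 ± 0.09, and the matrix gene Ibsp of -0.25 ± 0.17, neither called. The summed bone list was 743 to 921 CPM early and 845 to 995 CPM late.

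Osteoclasts resorb the bone around the growing germ, and 3 of their 15 genes rose while none fell (median 0.37). Itgb3, the integrin chain by which they attach, measured 17.54, 7.79, 17.2 and 11.3 CPM early and 26.1, 22.1, 25.0 and 23.6 CPM late (log2 difference 0.89 ± 0.16, adjusted p = 0.0192). Tcirg1, a proton pump subunit, rose by 0.25 ± 0.04, and Car2, carbonic anhydrase 2, from 33.9 ± 19.5 to 73.2 ± 23.3 CPM (1.15 ± 0.29, adjusted p = 0.0488). The defining genes Acp5, with 107, 47.6, 195 and 92.7 CPM early and 225, 123, 277 and 154 CPM late (adjusted p = 0.0628), and Ctsk, with 50.8, 22.4, 257 and 133 and 195, 118, 230.1 and 152 CPM (adjusted p = 0.532), were not called. Ctsk was lowest in individuals 1 and 2. The summed list was 451 to 1179 CPM early and 836 to 1401 CPM late. Of the 8 genes that signal to osteoclasts, 2 rose: Csf1 (0.23 ± 0.05), a growth factor of the lineage, and Tnfrsf11b, the decoy receptor osteoprotegerin that restrains it. Tnfrsf11b measured 4.32, 4.20, 4.59 and 3.76 CPM early and 6.75, 6.85, 11.4 and 9.21 CPM late without overlap (log2 difference 1.02 ± 0.17, adjusted p = 0.0165), while its ligand gene Tnfsf11 was not called (0.12 ± 0.18). Itgb3 lost its call when individual 4 or 8 was left out (adjusted p up to 0.0590). Tcirg1, Car2, Tnfrsf11b and Csf1 each lost the call when any of 3 to 7 libraries was left out, between them all 8 individuals (highest adjusted p 0.0613 to 0.134).

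Of 14 macrophage genes, 5 rose and none fell, with a median of 0.32. Mrc1, the mannose receptor of tissue macrophages, measured 12.6, 10.1, 11.001 and 9.25 CPM early and 22.3, 16.3, 25.0 and 16.9 CPM late (log2 difference 0.89 ± 0.08, adjusted p = 0.00308). The groups did not overlap, and the call held with any library left out and excluding individuals 1 and 2 (adjusted p = 0.0233). The complement genes C1qa (0.66 ± 0.09), C1qb (0.69 ± 0.11) and C1qc (0.68 ± 0.13) and the receptor gene Cx3cr1 (0.48 ± 0.12) rose. C1qa was called with any library left out. C1qb lost its call when individual 8 was left out (adjusted p = 0.0552). C1qc and Cx3cr1 each lost the call when any of 6 to 8 libraries was left out, between them all 8 individuals (highest adjusted p 0.0828 to 0.140). The pan-leukocyte gene Ptprc (0.20 ± 0.16) and Csf1r (0.43 ± 0.17) were not called. The summed macrophage list was 92.5 to 152 CPM early and 143 to 192 CPM late.

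Matrix remodelling genes were called in both directions, a few in each list, where 4.07% of all genes tested rose and 2.31% fell. Mmp13, a collagenase, measured 40.2, 38.1, 63.6 and 63.2 CPM early and 101, 108, 124 and 176 CPM late (log2 difference 1.30 ± 0.22, adjusted p = 0.0171), with no overlap. Mmp13 lost its call when individual 1 was left out (adjusted p = 0.0547). Adamts5, an aggrecan-cleaving protease, rose from 25.3 ± 2.97 to 33.2 ± 2.47 CPM (0.39 ± 0.05, adjusted p = 0.00758) and held with any library left out. Adamts18, of the same family, fell (-0.57 ± 0.12), so that 2 of 16 proteases and inhibitors rose and 1 fell. Adamts18 lost its call when any of individuals 1, 3, 4, 5, 7 and 8 was left out (adjusted p up to 0.0865). Of 17 proteoglycan and hyaluronan genes 3 rose and 1 fell. Hapln1, which links hyaluronan to proteoglycans, measured 35.8, 29.2, 60.2 and 54.1 CPM early and 92.5, 82.3, 119.6 and 108 CPM late (log2 difference 1.17 ± 0.22, adjusted p = 0.0231). Has2, a hyaluronan synthase, measured 31.6, 33.5, 17.7 and 22.6 CPM early and 14.2, 16.8, 10.6 and 14.3 CPM late (log2 difference -0.92 ± 0.20, adjusted p = 0.0338), while Has3 was not called (0.28 ± 0.09). Neither Hapln1 nor Has2 overlapped between groups. Hapln1 and Has2 each lost the call when any of 4 to 5 libraries was left out, between them individuals 1, 2, 6, 7 and 8 (highest adjusted p 0.0779 to 0.100). Acan, aggrecan, measured 1.97, 1.68, 2.46 and 2.65 CPM early and 4.70, 7.21, 7.24 and 6.77 CPM late (log2 difference 1.56 ± 0.19, adjusted p = 0.00758). Its call held with any library left out, but excluding individuals 1 and 2 its adjusted p was 0.0512. With Acan and Hapln1, Col9a2 (0.48 ± 0.11) made 3 of 12 cartilage genes that rose, while the defining cartilage genes Col2a1 (-0.22 ± 0.13) and Sox9 (0.32 ± 0.11) were not called. In the basement membrane list, 2 of 20 rose, Lamb3 and Col7a1 (0.24 ± 0.06), the collagen of anchoring fibrils. Col9a2, Col7a1 and Lamb3 each lost the call when any of 3 to 7 libraries was left out, between them all 8 individuals (highest adjusted p 0.0613 to 0.136).

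Some replication genes fell slightly. Of 32 cell cycle genes, 5 fell, 1 rose and 26 were not called. Of the 32 differences, 30 were negative, with a median log2 difference of -0.09. Over all genes tested, 8038 of 16054 differences were negative, and 2.31% of genes fell. The replication helicase genes Mcm2 (-0.22 ± 0.05), Mcm4 (-0.17 ± 0.04), Mcm5 (-0.22 ± 0.05) and Mcm7 (-0.23 ± 0.04) fell. Ccne1, the cyclin of entry into S phase, measured 38.9, 35.8, 35.3 and 33.2 CPM early and 30.7, 27.7, 28.4 and 26.0 CPM late (log2 difference -0.35 ± 0.06, adjusted p = 0.0141). Ccnd1, the cyclin of the first growth phase, rose instead, from 239.8, 276, 293 and 293 CPM early to 366, 355, 461 and 417 CPM late (log2 difference 0.54 ± 0.10, adjusted p = 0.0211). The groups did not overlap for Ccne1 or Ccnd1. The mitotic gene Top2a (-0.09 ± 0.05) was not called, and none of 7 Cdk inhibitor genes was. Ccne1 lost its call when individual 8 was left out (adjusted p = 0.0532). Ccnd1, Mcm7, Mcm5, Mcm2 and Mcm4 each lost the call when any of 3 to 8 libraries was left out, between them all 8 individuals (highest adjusted p 0.0622 to 0.106).

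Of the lists of other tissues in the dissection, 4 had 1 called gene each, against 6.38% of all genes tested called in either direction. Erythroid genes had a median of -0.58: 1 of 8 fell, Alas2, the haem synthesis gene of red cells, with 23.2, 24.2, 25.4 and 19.1 CPM early and 17.53, 15.4, 18.5 and 11.6 CPM late (log2 difference -0.56 ± 0.11). Among 12 endothelial genes 1 rose (Flt1, 0.42 ± 0.10), among 10 neuronal genes 1 (Stmn2, 0.71 ± 0.14) and among 13 skeletal muscle genes 1 (Ckm, 1.74 ± 0.42, on 63 early counts). All 13 measured muscle differences were positive, with a median of 0.50, against 0.03 for the endothelial and 0.03 for the neuronal list. Over all genes tested, 8016 of 16054 differences were positive. None of 10 Schwann cell genes was called. Alas2, Flt1, Stmn2 and Ckm each lost the call when any of 5 to 7 libraries was left out, between them individuals 1, 2, 3, 4, 6, 7 and 8 (highest adjusted p 0.0681 to 0.120). The summed levels were 33.3 to 41.1 CPM early and 22.7 to 29.6 CPM late for erythroid and 483 to 545 CPM early and 499 to 559 CPM late for endothelial genes. They were 77.0 to 121 CPM early and 98.1 to 126 CPM late for neuronal and 11.1 to 23.9 CPM early and 14.3 to 38.5 CPM late for muscle genes. The part of these tissues in the other results was not tested. Of the remaining lists, none of 33 ribosomal protein genes and none of 17 immediate early genes was called, with medians of -0.03 and 0.07. Dlk1 (0.67 ± 0.16) of 13 embryonic growth genes, Pfkp (0.40 ± 0.09) of 15 hypoxia and glycolysis genes, and Vdr (0.51 ± 0.12) with Car2 of 16 mineral transport genes rose. Dlk1, Pfkp and Vdr each lost the call when any of 6 to 8 libraries was left out, between them all 8 individuals (highest adjusted p 0.0874 to 0.115).

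In the list of jaw identity genes 3 of 15 rose (Sim2, Tbx22 and the antisense transcript Dlx6as1) and 2 fell (Osr2 and Gbx2). Sim2, a transcription factor gene, measured 0.773, 0.808, 1.35 and 0.795 CPM early and 3.26, 1.76, 3.10 and 2.02 CPM late (log2 difference 1.41 ± 0.20, adjusted p = 0.0116), without overlap, and held with any library left out. Tbx22, a palate gene, rose by 0.99 ± 0.23 and Dlx6as1 by 0.59 ± 0.13. Gbx2, a homeobox gene, measured 3.15, 8.20, 1.95 and 5.44 CPM early and 0.913, 3.57, 0.482 and 1.94 CPM late (log2 difference -1.55 ± 0.29, adjusted p = 0.0241). Gbx2 was higher in even-numbered than in odd-numbered libraries within each group. Gbx2, Tbx22 and Dlx6as1 each lost the call when any of 4 to 7 libraries was left out, between them all 8 individuals (highest adjusted p 0.0793 to 0.103).

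Among named genes with a mean count of at least 50 and no overlap between the groups, Cwc22 had the largest decrease (log2 difference -3.20 ± 0.38, adjusted p = 0.00717), and its early libraries were themselves at different levels, individuals 3 and 4 being well above individuals 1 and 2. Il1f9, the cytokine interleukin-36 gamma, measured 5.95, 6.02, 18.7 and 17.9 CPM early and 3.04, 2.22, 3.20 and 3.42 CPM late (-2.04 ± 0.42, adjusted p = 0.0315) with individuals 3 and 4 again above individuals 1 and 2. Lyrm7, an assembly factor of mitochondrial complex III, measured 5.28, 4.63, 4.69 and 5.01 CPM early and 1.63, 1.45, 1.397 and 1.03 CPM late (-1.84 ± 0.15, adjusted p = 0.00214), and here the 4 early libraries lay close together. H2-K1, a class I histocompatibility gene, measured 13.6, 9.95, 17.49 and 15.4 CPM early and 5.25, 4.94, 6.30 and 6.34 CPM late (-1.30 ± 0.17, adjusted p = 0.00864), and H2-D1, of the same family, 36.0, 28.1, 62.8 and 54.3 CPM and 20.2, 17.995, 25.3 and 23.1 CPM (-1.07 ± 0.23, adjusted p = 0.0347). Reads of these near-identical genes may be shared or lost between copies, as may those of the histone gene Hist1h4i (-1.10 ± 0.27). Sp5, a transcription factor induced by Wnt signals, measured 16.6, 12.8, 10.5 and 10.4 CPM early and 6.75, 6.62, 5.81 and 6.21 CPM late (-0.98 ± 0.15, adjusted p = 0.0133). Ildr2 (-1.24 ± 0.16), the G protein gene Gna14 (-1.18 ± 0.17), the threonine dehydrogenase gene Tdh (-1.15 ± 0.19) and Rps6kl1 (-1.02 ± 0.19) complete, with Has2, the 12 largest decreases under those limits. Cwc22, Lyrm7, H2-K1, Ildr2, Gna14 and Sp5 were called with any library left out. Cwc22 and Gna14 were not called in the fit over all 16 libraries (adjusted p = 0.0669 and 0.0771) or as a linear slope per labelled day (0.0754 and 0.0835), and H2-K1 was not called as a slope (0.0876). Tdh lost its call when individual 1 or 8 was left out (adjusted p up to 0.0522). Il1f9, H2-D1, Rps6kl1 and Hist1h4i each lost the call when any of 4 to 7 libraries was left out, between them all 8 individuals (highest adjusted p 0.0651 to 0.125). Excluding individuals 1 and 2, Cwc22, Il1f9, Lyrm7, H2-K1 and H2-D1 were called (adjusted p = 8.42e-06, 0.00695, 0.0244, 0.0121 and 0.0103). That setting leaves only the neighbours 3 and 4 as the early group, so these values count 2 similar libraries as separate samples. With neighbours summed, edgeR's test called none of these genes (adjusted p = 0.104, 0.247, 0.0662, 0.136 and 0.264).

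The same step in the labelled upper molar was compared with that in the labelled lower molar. In a fit over all 16 libraries, the late minus early difference was greater in the labelled lower molar for 242 of 16287 genes (1.49%) and smaller for 356 (2.19%) by edgeR's quasi-likelihood test of the interaction. With the labelled individual as a block the counts were 202 and 275. With neighbours summed within each label, edgeR's test called 0 genes in either direction, and 1567 of 16763 had an unadjusted p under 0.05. The interaction calls below therefore count the 16 libraries as separate samples. No other tool was run for the interaction. Pou3f3 alternated the same way in the labelled upper libraries, with 10.04, 131, 8.30, 120.0, 6.47, 112, 10.1 and 109 CPM in individuals 1 to 8, so the libraries called lower and upper here are those labels, and directions between them refer to the labels. Trim68, a ubiquitin ligase gene, measured 9.20, 8.33, 9.25 and 7.78 CPM early and 18.7, 18.98, 24.1 and 23.7 CPM late in the labelled lower libraries, without overlap, and 15.1 to 16.7 CPM in the early and 15.6 to 16.2 CPM in the late labelled upper libraries (lower minus upper 1.34 ± 0.13, adjusted p = 0.000392). Trim12c, of the same gene family, measured 4.24, 4.09, 5.04 and 5.37 CPM early and 14.4, 16.4, 22.04 and 25.4 CPM late, against 12.2 to 13.6 CPM in the early and 13.5 to 16.4 CPM in the late labelled upper libraries (1.81 ± 0.21, adjusted p = 0.000669). Hmgn3, a nucleosome-binding protein gene, ran at 60.9 to 70.8 CPM in the early and 86.9 to 95.5 CPM in the late libraries, and at 56.4 to 57.8 CPM in the early and 50.5 to 54.6 CPM in the late labelled upper libraries (0.57 ± 0.06, adjusted p = 0.000501). Trim68, Trim12c and Hmgn3 were called in the labelled lower step itself with any library left out and excluding individuals 1 and 2. With neighbours summed, edgeR's test did not call that step for any of them (adjusted p = 0.0598, 0.0669 and 0.0983). Tsc22d1, a transcriptional regulator gene (0.49 ± 0.05), and Scx, the tendon factor scleraxis (1.37 ± 0.17), were not called in the labelled lower step. Both fell in the labelled upper one (log2 differences -0.36 and -1.38).

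Of the genes with a smaller difference in the labelled lower molar, Tead1, a transcription factor of the Hippo pathway, ran at 332 to 439 CPM in the early and 278 to 368 CPM in the late libraries, and at 289 to 323 CPM in the early and 348 to 367 CPM in the late labelled upper libraries (-0.50 ± 0.05, adjusted p = 0.000392). Fam189a1 (-0.97 ± 0.11), Psd3 (-0.72 ± 0.08), Dock10 (-1.06 ± 0.12) and the receptor gene Ror1 (-0.87 ± 0.10) rose in the labelled upper molar, by 0.73, 0.58, 0.85 and 0.68. In the labelled lower molar Fam189a1 was called lower over the 8 libraries (log2 difference -0.25 ± 0.05) but not in the fit over 16 (adjusted p = 0.0557), and the other 3 were not called. Fam189a1 lost its call when any of individuals 2, 3, 4, 6 and 8 was left out (adjusted p up to 0.0857). Among the tooth genes above, the difference between the labels was called for Bmp2 (1.68 ± 0.22, adjusted p = 0.00161), at 9.94 to 16.1 CPM in the early and 6.57 to 10.2 CPM in the late labelled upper libraries. It was called also for Tnc (1.11 ± 0.16, adjusted p = 0.00209), Klf4 (1.07 ± 0.13, adjusted p = 0.00101), Smad6 (0.71 ± 0.11, adjusted p = 0.00322) and Mrc1 (0.92 ± 0.12, adjusted p = 0.00161). Further such genes were Tnfrsf11b (1.79 ± 0.26, adjusted p = 0.00262), Lum (0.69 ± 0.13, adjusted p = 0.00997), Lef1 (-0.78 ± 0.09, adjusted p = 0.000669) and Gli3 (-0.54 ± 0.10, adjusted p = 0.00997). It was not called for Shh (-0.02 ± 0.28), Sp6 (0.05 ± 0.23), Mmp13 (-1.38 ± 0.42), Fgf3 (0.998 ± 0.28) or Ccnd1 (0.11 ± 0.13). Of the cornifying genes the difference was called for 2 of 15, Sprr1a and Lor. Sprr1a was at 0.417 to 1.15 CPM in the early and 0.410 to 1.43 CPM in the late labelled upper libraries (3.24 ± 0.70, adjusted p = 0.0245), and Lor at 2.28 to 3.52 CPM in the early and 2.78 to 2.96 CPM in the late labelled upper libraries (2.72 ± 0.60, adjusted p = 0.0261). The early and late labelled upper libraries were in 2 lanes of another flow cell, so the flow cell cannot be told apart from the tooth label.

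**Figure D5:**
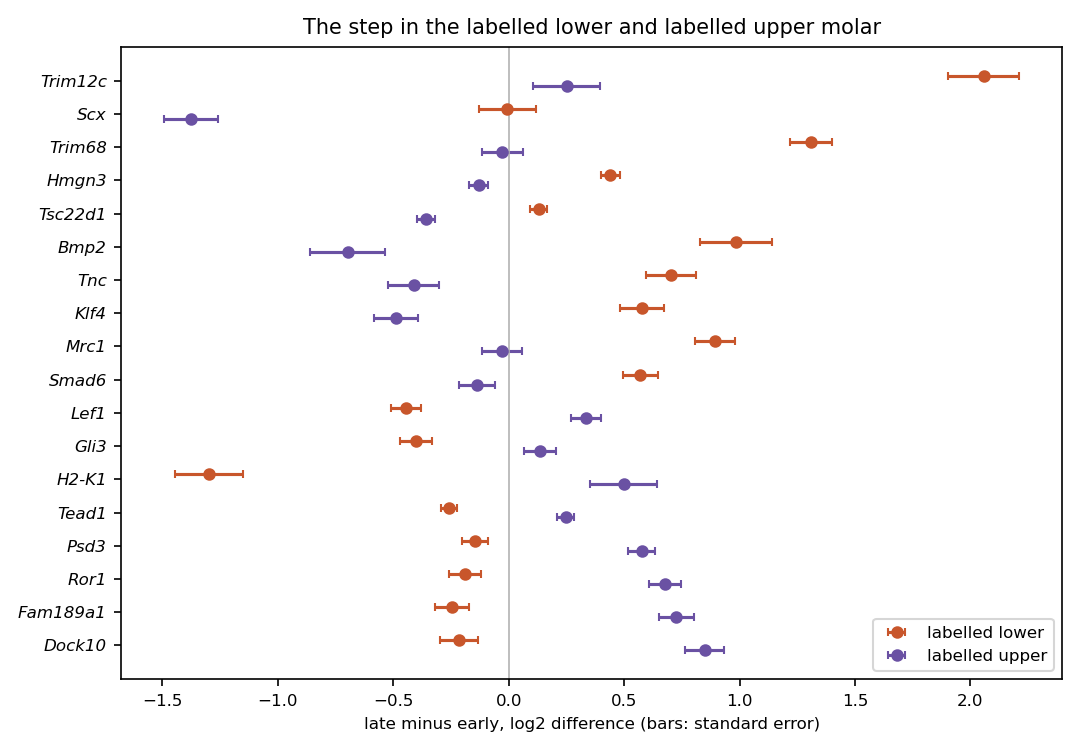
Late minus early log2 difference (x axis, points, with bars of 1 standard error) in the labelled lower (orange) and labelled upper (purple) libraries for 18 genes (y axis), from the fit over 16 libraries. Bmp2, Tnc and Klf4 are above 0 in the labelled lower and below 0 in the labelled upper molar, Lef1, H2-K1 and Tead1 are the reverse, and the labelled upper points of Trim68 and Mrc1 lie near 0.

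No gene of 16054 (0.0%) differed between even-numbered and odd-numbered individuals in the size of the step by edgeR's quasi-likelihood test, and 158 had an unadjusted p under 0.05. No other tool was run for that test. The alternating term itself was called for 628 genes, of which 123 were also called between late and early.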

How the data were processed

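RNA-seq was done on 16 libraries, of which the 8 labelled lower entered the comparison. The authors deposited whole-number read counts per gene symbol, without normalization; the submitters' processing notes name Bowtie2 2.0.2, TopHat2 2.0.6, HTSeq 0.5.3p9 and mm10, with the annotation, strand setting and counted unit not given in these sources. The TruSeq V2 kit, named in the labels' protocols, does not mark strand, so overlapping and antisense genes (Dlx6as1) could not be separated. The 5 summary lines of each table were left out; reads on no feature were 13.7% to 15.1% and ambiguous reads 0.955% to 1.09% in the labelled lower libraries. Flow cell and lane come from the names of the deposited tables.

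Genes at 0.256 CPM (10 counts at the median depth) in at least 2 of the 8 libraries entered edgeR 4.0.16 under R 4.3.3 (TMM scaling, quasi-likelihood F test, Benjamini-Hochberg over all genes, threshold 0.05, a term for the alternating group). The fit was tried on simulated counts without an alternating effect and with libraries drawn independently. That trial therefore tested neither the alternating term nor the likeness of neighbouring libraries. Standard errors are the log2 difference divided by the square root of F. Printed CPM use TMM library sizes over 16 libraries. Per the labels, both molars of a stage were taken from 1 individual, and that individual was an alternative block in the interaction test. No libraries held the same counts: the most alike labelled lower libraries differed at 18236 genes. Promoters and coordinates are from RefSeq (GRCm38.p6, the same assembly as mm10). The alternating term, the members and the lists were chosen with earlier results of these data known. The rule for named genes (mean count 50 or more) took the 12 largest called differences in each direction without overlap, up to 4 called and 2 uncalled members per list, and 5 interaction genes in each direction. Others named (C4b, Ndufa4l2, Nup210, and list members beyond the rule, such as Enam, Lor, Krt4, Msx2, Bmp4, Rspo4, Id1, Tfap2b, Mcm2 and Ctsk) were chosen after their values were seen. Some list members counted here are not reported by name. DESeq2 1.42.0, other normalizations, filters, models and left-out libraries were alternatives. As each stage is 1 embryo by the labels, p-values measure the spread between these libraries. They count the libraries as independent, which was not tested.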

Additional observations from a re-analysis of the deposited data

Results flagged for a closer look

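Among 260 groups of 4 libraries examined for a single library far from the other 3, 4 were found. That is a smaller share than the about 1 in 20 that chance gives, so the 4 are a description only. Acan was 4.70 CPM in late individual 5 against 6.77 to 7.24 CPM in the other late libraries. Sim2 was 1.35 CPM in early individual 3 against 0.773 to 0.808 CPM, and Tdh was 1.45 CPM in the same library against 1.98 to 2.09 CPM. Kprp, a keratinocyte gene, had its only early count in individual 4, at 0.0241 CPM. The calls of Acan and Sim2 held without those libraries and that of Tdh held without individual 3. Kprp lost its call when individual 4 was left out, and also without individual 1, 2 or 3 (adjusted p up to 0.0836).

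The step differed between the labelled lower and the labelled upper molar, by edgeR's quasi-likelihood test of the interaction with Benjamini-Hochberg adjustment, for 242 genes upward and 356 downward. The genes given are, for each direction, those ranked 1 to 5 by p among named genes with a mean count of at least 50. It was greater in the labelled lower molar for Trim68 by 1.34 (log2, adjusted p = 0.000392), Hmgn3 by 0.57 (0.000501), Tsc22d1 by 0.49 (0.000628), Trim12c by 1.81 (0.000669) and Scx by 1.37 (0.000993). It was smaller for Tead1 by -0.50 (0.000392), and for Fam189a1 by -0.97, Psd3 by -0.72, Dock10 by -1.06 and Ror1 by -0.87 (0.000628 each). All 10 differences were called with any of the 16 libraries left out and with the individual as a block. With neighbours summed, none of the 10 was called (adjusted p = 0.102 to 0.133), and all 10 kept their sign.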

How the results depend on the processing

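The main counts were 653 genes higher and 371 lower late. With DESeq2 size factors, upper-quartile scaling, no filter or a filter on 4 libraries, they were 627 to 678 higher and 363 to 402 lower, and in the fit over 16 libraries they stayed within 1.5 times. They became 1121 and 797 by DESeq2's Wald test, 1110 and 703 as a linear slope per labelled day, 174 and 82 without the alternating term, 55 and 39 excluding individuals 1 and 2, and 17 and 1 with neighbours summed, an alternative chosen after seeing the data. Odd-numbered or even-numbered individuals alone gave 0 and 0, with 1485 and 1976 genes at an unadjusted p under 0.05 by edgeR's test of 2 against 2. Leaving out 1 library gave 151 to 546 higher and 57 to 323 lower. The cause of these shifts was not tested, except that leaving out or summing libraries lowers their number. For the difference between the labels (242 greater, 356 smaller), the replicate block gave 202 and 275, excluding labelled lower individuals 1 and 2 gave 156 and 243, summing neighbours (added after seeing the data) gave 0 and 0, and leaving out 1 of 16 libraries gave 107 to 236 and 180 to 351. The even minus odd difference had 0 calls under every alternative run. No gene's difference named here reversed its direction with a call. Of 125 called genes examined singly, 35 kept their call with any library left out, 18 with neighbours summed and 17 excluding individuals 1 and 2; individual 8 ended most calls (84) and individual 5 fewest (24). Of the 125, 71 lost their call without the alternating term, 22 as a slope and 24 in the fit over 16 libraries. Among the 35, these were Adamts5, C1qa, Gli2, Lgr4, Tead1 and Tnc without that term, Cwc22, Gna14, H2-K1 and Sprr3 as a slope, and Adamts5, Cwc22 and Gna14 over 16 libraries. Depth limits the folds of Hrnr, Crct1, Csta and Enam, which rested on 7, 20, 31 and 59 early counts.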
